A study of Mus musculus with 8 samples.

Results

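The probes described here are the 16194 gene probes, of 55681 on the array, that the array design names by a stretch of the mouse genome instead of a gene. They were chosen by name alone: all non-control probes whose systematic name starts with a chromosome. Each name holds a chromosome, a start and an end, and all but 13 hold a strand mark, F or R. The build in the file headers is mm9, and the files do not state whether F and R mark the strand of the target or of the probe. On arrays of this maker such names mark long intergenic non-coding RNA (lincRNA) regions, and the files describe them no further. The 8 arrays compared RNA of adherent peritoneal macrophages from mice of C57BL/6 background: FURIN knockout (KO, the LysMCre-fur(fl/fl) mice of the study's methods, in which Cre is driven from the Lyz2 locus and acts in myeloid cells) and wild-type (WT) littermates. The cells were left untreated or given LPS at 1 μg/ml for 1, 4 or 24 h, with 2 labelled biological replicates of each genotype and time. Each array carried KO and WT RNA of 1 time and replicate in different dyes, so there were 16 channels. Replicate 1 had KO in Cy5 and replicate 2 had KO in Cy3 at every time, so replicate and dye orientation cannot be told apart. All arrays lay on 1 slide, with the untreated and 1 h arrays in 1 row and the 4 h and 24 h arrays in the other, so position and time cannot be told apart in part of the comparisons.

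LincRNAs are transcribed by RNA polymerase II between protein-coding genes, are often spliced and polyadenylated, and are usually less abundant than mRNAs. LPS, a cell wall component of Gram-negative bacteria, activates Toll-like receptor 4 on macrophages and through NF-κB and interferon signalling changes a large part of their transcription, non-coding RNAs included. FURIN is a proprotein convertase that cleaves precursor proteins in the secretory pathway.

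The region names held 3543 positions and 4610 positions with strand, which merged into 2226 loci once overlapping positions were joined. Of the probes, 8171 were marked F, 8010 were marked R and 13 had no mark. Both strands were covered at 1067 positions and 1 strand at 2476. Most stranded regions, 3920, had 2 or more probes, up to 10, and 690 had 1 probe. The median region was 7304 bases long, the quartiles were 786.5 and 21807 bases, and 135 of the 3543 positions were over 100 kb. Chromosome 1 held the most probes, 1199, and chromosome X held 577, whereas chromosome Y held 0. Probes of one region lie in one named stretch, whether or not they read the same transcript, and their values are not replicates of each other. The annotation of mm9 was not used here, so no region is tied to a neighbouring gene, and no probe sequence is printed.

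The genotype labels were first checked on the targeted gene. Furin was lower in the KO channel with a mean log2 KO/WT of -0.44 ± 0.05 (SE, 8 arrays; limma adjusted p = 0.0197), but at 4 h the ratios were 0.0012 and 0.33, so at that time KO stands throughout for the RNA labelled KO. Lyz2, the locus that carries Cre, had log2 KO/WT of -1.04 and -1.13 at 4 h, in the labelled direction. Its WT level was the highest value of the normalized scale, 18.10, on the untreated and the 1 h array of replicate 1, so the ratios of those 2 arrays were limited by that ceiling, and no mean is given. Of the 8 macrophage markers listed, 7 were measured, and all 7 were well above background in all 16 channels. The summed macrophage markers had log2 KO/WT from -0.58 to -0.28 in replicate 1 and from -0.75 to 0.12 in replicate 2. This sum of linear intensities includes Lyz2, so its ratio cannot be read as a difference in the number of macrophages. Summed markers of some other cell types differed between the replicates: log2 KO/WT of the steroid-producing cell markers ran from -1.23 to -0.60 in replicate 1 and from 0.20 to 0.48 in replicate 2, and that of the mast cell markers from -0.22 to 0.22 and from 0.43 to 1.09. The T and NK cell markers ran from 0.32 to 0.79 and from -0.40 to 0.14, and the neutrophil markers, which overlapped between replicates, from -0.68 to -0.08 and from -0.57 to 1.51. Their part in the results below was not tested.

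A smaller share of region probes than of other gene probes was detected in these macrophages. Between 22.5% and 31.2% of them were well above background in a single channel by the scanner software's test, against 50.7% to 58.1% of the 39487 other gene probes. The highest share was in the WT channel of untreated replicate 1, 31.2%, and the next highest channel had 28.2%. Probes for annotated non-coding RNA accessions, of which the array has 1966, were close to the region probes, with 27.7% to 36.5%, while the 27184 probes for mRNA accessions had 57.4% to 64.6%. The share above background on both arrays of a group was 25.8%, 22.7%, 21.4% and 23.5% in WT cells at 0, 1, 4 and 24 h. In KO cells the same shares were 23.3%, 23.4%, 21.4% and 24.0%. By the software's less strict flag for positive and significant signal, the median share of region probes per channel was 51.4%. These shares are given without a test, since each group has 2 arrays.

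A set of 2740 region probes (16.9%) was above background in all 16 channels, 4042 (25%) in some and 9412 (58.1%) in none. For comparison, 45.8% of the other gene probes were above background in all channels, 52.4% of the mRNA probes and 23.1% of the non-coding RNA probes. The median region probe had a normalized mean log2 intensity of 6.29, with quartiles of 6.16 and 6.67, against 6.89 for the other gene probes and 6.30 for the non-coding RNA probes. Only 438 region probes (2.7%) had a mean of 10 or more, against 22.2% of the other probes. The brightest stood at 16.86. Levels of different probes depend on their sequence and cannot be ranked as amounts of RNA.

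By region, 1680 of the 4610 stranded regions had at least 1 probe above background in all 16 channels, and 1340 had no probe above background in any channel. Probes of one region often gave different readings. Among the 3920 stranded regions with 2 or more probes, 161 had all of them above background throughout, 1360 had some and 2399 had none. At the 1067 positions probed on both strands, 245 had a probe above background in all channels on both strands, 231 on F alone, 248 on R alone and 343 on neither.

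LPS changed the signal of region probes in both genotypes, most widely at 4 h. Within-genotype responses were tested with limma on separate channels, with Benjamini-Hochberg adjustment over all 55502 gene probes tested, and 16133 region probes passed the filter of a mean log2 intensity of 6. At 1 h, 536 region probes changed in WT cells (235 rose, 301 fell), which is 3.32% of those tested against 7.08% of all gene probes (2.9% rising and 4.18% falling). At 4 h the count was 2430 (1329 rose, 1101 fell), 15.1% against 30.4% (13.8% and 16.6%), and at 24 h it was 1894 (752 rose, 1142 fell), 11.7% against 25.9% (11.5% and 14.4%). The RNA came from whole cultures, so a change in the number of cells of a type and in the RNA per cell cannot be told apart. Marker levels of macrophages and of other cell types moved with time after LPS. The summed macrophage markers, Lyz2 included, lay between 531647 and 628184 in WT and 447764 and 451493 in KO untreated. At 24 h they lay between 252724 and 269557 in WT and 160597 and 180762 in KO. The summed mesothelial and fibroblast markers, 1 of 7 above background in all 16 channels, ran from 759 to 924 untreated and from 1902 to 2579 at 24 h. The summed intensity of the neutrophil markers lay between 2284 and 3406 in all channels up to 4 h, and at 24 h ran from 22740 to 60069 in WT and from 37546 to 64800 in KO. The summed mast cell markers lay between 7477 and 19926 up to 4 h and between 1646 and 3504 at 24 h, and the summed B cell markers lay between 60729 and 104434 up to 1 h and between 27036 and 47588 from 4 h on. Their part in the counts of LPS responses was not tested. Without replicate 1 at 1 h the WT count at 1 h was 213 up and 168 down, and without replicate 2 at 1 h it was 234 up and 193 down, so the order of rises and falls turned, as it did with the filter at a mean log2 of 7 (211 up and 209 down). Without untreated replicate 1 it was 144 up and 216 down, and without untreated replicate 2 it was 149 up and 215 down. The 3 LPS times share the untreated channels and are not independent of each other.

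In KO cells, too, 4 h had the most calls. At 1 h, 358 region probes changed (196 rose, 162 fell), 2.22% against 6.02% of all gene probes (2.62% rising and 3.4% falling). With the replicate number as a block this count was 551, against 9.28% of all gene probes. At 4 h, 2490 changed (1513 rose, 977 fell), 15.4% against 31.3% (14.4% and 16.8%), and at 24 h, 1673 changed (772 rose, 901 fell), 10.4% against 24.4% (10.9% and 13.5%). In KO cells at 1 h, 208 rose and 77 fell without replicate 1 at 1 h, 174 and 58 without replicate 2 at 1 h, and 116 and 115 without untreated replicate 1, while falls outnumbered rises without untreated replicate 2 (142 and 152). At 24 h in KO cells the order turned without replicate 2 of that time, with 712 up and 614 down. The share of region probes called was below the background share in all 6 comparisons. By count, with no test, the directions at 4 h differed too: over all gene probes fewer rose than fell in WT cells, 7650 against 9195, and in the RNA labelled KO, 8002 against 9346, whereas more region probes rose than fell in both.

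Calls shared by the genotypes numbered 289 at 1 h (165 rose, 124 fell), 1956 at 4 h (1129 rose, 827 fell) and 1357 at 24 h (604 rose, 753 fell). They were 1.79%, 12.1% and 8.41% of the region probes tested, against 4.84%, 26.9% and 21.4% of all gene probes. No region probe was called in opposite directions. The shared calls were 53.9%, 80.5% and 71.6% of the WT calls and 80.7%, 78.6% and 81.1% of the KO calls at the 3 times. WT and KO RNA lay on the same arrays, so these shares are descriptions. Rises of at least 4-fold by the fitted change in both genotypes numbered 20, 99 and 66 at the 3 times, which is 0.124%, 0.614% and 0.409% of the region probes against 0.368%, 1.42% and 1.19% of all gene probes. Falls of that size numbered 0, 35 and 16, which is 0%, 0.217% and 0.0992% against 0.018%, 1.28% and 0.814%. Rises of that size outnumbered falls among all gene probes too.

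Dim probes are called less often, so the shares were also taken within classes of mean intensity. In WT cells at 4 h, 7.16% of the region probes under a mean log2 of 7 were called, 47.3% of those from 7 to 8, 61% of those from 8 to 10 and 54.7% of those at 10 and over. The other gene probes gave 9.17%, 54.2%, 67.6% and 70.5% in the same classes. The share of region probes lay below that of the others in every class, for every LPS time and in both genotypes. At 24 h, for example, the WT shares were 4.89%, 36.3%, 50.7% and 59.5% for region probes and 7.43%, 45.2%, 58.2% and 63.2% for the others. The lowest class held 82.7% of the region probes and 51.8% of the others.

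Among the region probes called in WT cells at 4 h, the brighter condition was above background on both arrays for 1128 of the 1329 that rose and 973 of the 1101 that fell. In 125 of those that rose (9.41%) and 63 of those that fell (5.72%), neither condition was above background on any array. The median change called was nearer to 0 than that of other gene probes: in WT cells at 4 h the median rise was 0.60 on the log2 scale for region probes and 0.87 for the others, and the median fall was -0.61 and -0.87.

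Regions with the largest responses are described next, up to 5 rises and 5 falls at each LPS time. Levels below are normalized log2 intensities, given for replicates 1 and 2 of each time, and changes are log2 LPS over untreated with the SE of the fit and the limma adjusted p. The probe with the largest rise at 1 h and at 4 h, A_30_P01018532, lies in chr10:69669025-69686275, strand R. Its WT levels were 7.48 and 7.26 untreated, 13.05 and 12.59 at 1 h, 14.87 and 14.77 at 4 h, then 11.78 and 11.45 at 24 h. Its KO levels were 7.83 and 7.56, 12.85 and 12.98, 14.81 and 14.77, and 11.82 and 11.62 at the same times. Both replicates of both genotypes thus rose within 1 h, were highest at 4 h and stayed above the untreated range at 24 h, with no overlap between any LPS time and untreated. The changes were 5.45 ± 0.16 at 1 h (adjusted p = 8.28e-11) and 7.45 at 4 h (adjusted p = 5.03e-13) in WT cells, and 5.22 and 7.09 (adjusted p = 1.04e-12 at 4 h) in the RNA labelled KO. The other 4 probes of this region were not called in both genotypes at any time, and the region is 17251 bases long.

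A second early region was read from both strands. Probe A_30_P01032196 covers chr16:84708695-84708806 on strand F, a target of 112 bases. Its WT levels were 7.05 and 7.50 untreated, 11.68 and 11.91 at 1 h, 12.87 and 12.88 at 4 h, then 11.07 and 11.48 at 24 h, and its KO levels were 7.39 and 7.29, 11.50 and 11.86, 13.03 and 12.59, and 11.48 and 11.31. It rose by 4.52, 5.60 and 4.00 in WT cells and by 4.34, 5.47 and 4.06 in KO cells (SE 0.19). On the opposite strand, the overlapping chr16:84702353-84710928 had 3 probes, and 3 of 3 rose at each time in both genotypes. Its probe A_30_P01020928 had WT levels of 6.68 and 6.81 untreated, 10.60 and 10.77 at 1 h, 11.78 and 11.58 at 4 h, then 9.94 and 10.37 at 24 h, for changes of 3.94, 4.94 and 3.41 in WT cells and 3.77, 5.03 and 3.70 in KO cells. The probes marked F and R at this locus were both highest at 4 h.

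Another early region was chrX:18734106-18744367 on strand R. The WT levels of its probe A_30_P01020672 were 7.16 and 7.31 untreated, 11.91 and 12.08 at 1 h, 9.64 and 10.06 at 4 h, then 8.60 and 8.78 at 24 h, and the KO levels were 7.31 and 7.55, 11.08 and 12.05, 9.80 and 9.43, and 9.15 and 8.88. It was highest at 1 h in both replicates of both genotypes and then fell back towards the untreated level without reaching it. The rise at 1 h was 4.76 ± 0.25 in WT cells and 4.13 in KO cells, and the 3 probes of the region gave 4.54 to 4.76 and 4.01 to 4.13. Probe A_30_P01023949 in chr10:24269165-24276690, strand F, also rose at 1 h, by 3.96 in WT and 3.87 in KO cells, and at 4 h by 5.25 and 5.04 (SE 0.19). It was nearly back at 24 h, when the changes were 0.83 and 0.85, and it was the only 1 of 5 probes of its region to rise.

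In other regions the rise came between 1 and 4 h. Probe A_30_P01027922 in chr7:111530578-111539097, strand R, had WT levels of 6.85 and 6.54 untreated, 7.04 and 6.78 at 1 h, 13.68 and 13.49 at 4 h, then 10.54 and 9.94 at 24 h. The KO levels were 6.52 and 7.06, 7.02 and 6.98, 13.69 and 13.67, and 10.87 and 11.02. The untreated and 1 h levels overlapped or lay close together, and the 4 h levels stood far above them in all cells. The 1 h change in WT cells was 0.22 ± 0.20 (adjusted p = 0.73), and the rise at 4 h was 6.89 in WT cells (adjusted p = 9.35e-12) and 6.89 in the RNA labelled KO (adjusted p = 1.09e-11). Its untreated signal was above background on 1 of the 2 arrays in each genotype, and 3 of 3 probes of the region rose at 4 and 24 h.

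A region on chromosome 6 kept its level to 24 h. Probe A_30_P01025572 in chr6:57583950-57624216, strand F, had WT levels of 7.98 and 7.97 untreated, 8.31 and 8.21 at 1 h, 12.83 and 12.51 at 4 h, then 12.45 and 12.55 at 24 h, and KO levels of 8.08 and 8.43, 8.15 and 8.34, 13.12 and 13.14, and 12.70 and 12.81. The 4 h and 24 h levels lay within a narrow range well above the earlier ones. The rises were 4.70 and 4.53 in WT cells and 4.87 and 4.50 in KO cells at 4 and 24 h (SE 0.13), and 2 of 2 probes of the region rose. Probe A_30_P01019478 in chr16:4867322-4874772, strand F, rose at all 3 times, by 3.31, 5.25 and 2.25 in WT and 3.27, 5.11 and 2.18 in KO cells (SE 0.17), but of the 10 probes of that region only 1, 2 and 1 rose.

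Other probes rose most at 24 h. Probe A_30_P01027968 in chr6:136440100-136450050, strand F, had WT levels of 7.43 and 7.34 untreated, 7.80 and 7.60 at 1 h, 9.34 and 9.001 at 4 h, then 11.46 and 11.29 at 24 h, and KO levels of 7.64 and 7.07, 7.90 and 7.23, 9.70 and 8.69, and 11.82 and 11.09. Its levels at 24 h exceeded those at 4 h in every replicate of both genotypes. The rise at 24 h was 3.99 ± 0.31 in WT cells (adjusted p = 1.8e-07) and 4.10 in KO cells, in 1 of the 5 probes of the region. Probe A_30_P01023399 in chr11:53574182-53574644, strand R, rose at 24 h by 3.81 ± 0.34 and 3.85, in 1 of 3 probes.

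The largest fall was in chr7:16633756-16634410, strand F. The WT levels of its probe A_30_P01019086 were 11.35 and 11.77 untreated, 10.26 and 10.75 at 1 h, 6.83 and 6.76 at 4 h, then 9.74 and 9.81 at 24 h, and the KO levels were 11.62 and 11.50, 11.11 and 10.64, 6.59 and 6.79, and 9.82 and 9.77. The 4 h levels lay far below all others, near the background of the array, and the 24 h levels lay between the 4 h and the untreated ones. The changes at 4 h were -4.76 ± 0.19 in WT cells (adjusted p = 1.3e-10) and -4.87 in the RNA labelled KO, where 1 of the 2 arrays was above background, and those at 24 h were -1.78 and -1.76. All 3 probes of this region fell at 4 h.

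The region with the highest number of fallen probes at 4 h was chr17:26911397-26917047, strand F, 5651 bases long. All 10 of its probes fell at 4 h and at 24 h in both genotypes and 8 of 10 at 1 h. The 10 changes ran from -2.88 to -2.34 in WT and from -2.78 to -2.27 in KO cells at 4 h, and from -3.04 to -2.47 and from -2.62 to -2.22 at 24 h. For its probe A_30_P01022537, WT levels were 11.74 and 11.87 untreated, 10.72 and 10.97 at 1 h, 8.81 and 9.05 at 4 h, then 8.72 and 8.80 at 24 h, and KO levels were 11.69 and 11.79, 11.24 and 11.09, 9.14 and 8.93, and 9.07 and 9.16. The fall was thus already visible at 1 h on every array and held at 24 h.

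Several other falls were shared by most probes of a region. In chr11:95627874-95640824, strand F, 9 of 10 probes fell at 4 h, and 7 of 9 fell on strand R. Its probe A_30_P01023450 changed by -3.00 in WT and -2.81 in KO cells (SE 0.14) at 4 h and by -2.07 and -1.98 at 24 h. In chr3:21964899-21974524, strand R, 5 of 5 probes fell at 4 h, and A_30_P01022266 changed by -2.77 and -2.93 (SE 0.10). Probe A_30_P01027491 in chr5:122048289-122068947, strand R, changed by -2.87 and -2.86 (SE 0.13).

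At 24 h the named fall with the largest smaller change was that of A_30_P01022537, described above, with -3.04 in WT and -2.62 in KO cells. Other regions followed. Probe A_30_P01032682 in chr11:117792051-117811334, strand R, had WT levels of 13.68 and 13.32 untreated, 13.42 and 13.06 at 1 h, 12.75 and 12.31 at 4 h, then 11.17 and 10.71 at 24 h. These levels overlapped between untreated and 1 h and were lowest at 24 h in both replicates. Its changes at 24 h were -2.56 in WT and -2.66 in KO cells (SE 0.19). Probe A_30_P01021628 in chr11:60728207-60745369, strand R, changed by -2.58 and -2.46, and A_30_P01028309 in chr13:94182877-94203935, strand R, by -2.39 and -2.38, where 4 of 4 probes fell. Probe A_30_P01018083 in chr1:183951156-183986156, strand F, changed by -2.30 and -2.47 (SE 0.34), and at 24 h it was above background on 1 of 2 WT arrays.

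Falls at 1 h were smaller. Probe A_30_P01024344 in chr4:149445201-149445902, strand F, changed by -1.74 ± 0.24 in WT and -1.22 in KO cells (adjusted p = 0.0059 in KO). The KO call was lost when untreated replicate 2 was left out (change -1.05, adjusted p = 0.0738) and when replicate 1 at 1 h was left out (change -0.97, adjusted p = 0.0980). Probe A_30_P01026288 in chr6:83368261-83407280, strand R, changed by -1.62 and -1.14, A_30_P01028447 in chr17:33425193-33449090, strand F, by -1.37 and -1.03, and A_30_P01021165 in chr15:36800254-36809571, strand R, by -1.18 and -1.26. On chromosome 10, A_30_P01021625 in chr10:39659425-39674200, strand R, fell by 1.13 on the log2 scale in WT cells, where 1 of the 2 arrays at 1 h was above background, and was at least 2.07-fold lower in KO cells, where neither array at 1 h was above background, and 5 of 5 probes of that region fell. The overlapping chr10:39666719-39679959, strand R, had a course of both signs: 3 of 3 probes fell at 1 h (WT -0.88 to -0.64) and at 4 h (WT -1.70 to -1.34) and rose at 24 h (WT 1.43 to 1.56, KO 1.13 to 1.44).

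Where 2 or more probes of a region were called, they mostly moved one way, but in most regions with a call 1 probe was called. Counting calls shared by both genotypes, 172 stranded regions had a called probe at 1 h, 1157 at 4 h and 840 at 24 h. Of the 416 with 2 or more called probes at 4 h, all called probes rose in 195, all fell in 185 and 36 were mixed. At 1 h the counts were 30, 28 and 1 of 59, and at 24 h 93, 152 and 27 of 272. The regions with the most risen probes at 4 h were chr5:74487385-74497428, strand F, with 8 of 10, chr17:35080914-35090009 and chr5:23195569-23218551, both R, with 7 of 7, and chr3:108763862-108772151, strand R, with 7 of 8. At 1 h, 5 of 5 probes rose in 5 stranded regions, 2 of them within 100 kb of each other on chromosome 1 (chr1:175654606-175672031 and chr1:175705225-175717250, both R).

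Called probes on opposite strands of one position moved the same way in some positions and in opposite ways in others. At 4 h, 132 positions had called probes on both strands: 74 moved one way, 46 moved in opposite directions by strand and 12 had mixed calls on a strand. At 24 h the counts were 38, 22 and 6 of 66, and at 1 h 6, 1 and 0 of 7. Examples at 4 h, picked after their values were seen, were chr8:72663625-72673010, where 8 of 8 probes fell on F (A_30_P01020975, -1.33 ± 0.15 in WT and -1.59 in KO cells) while 1 of 10 rose on R (A_30_P01019220, 1.08 ± 0.31 and 1.08, adjusted p = 0.0151 and 0.0147). In chr17:6602100-6615425, A_30_P01017917 on F rose by 1.74 and 1.96, and A_30_P01026467 on R changed by -0.98 and -1.01. In chr5:123582742-123588202, A_30_P01025493 on F rose by 0.93 and 1.12, and A_30_P01022612 on R changed by -1.27 and -0.97.

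The time of the largest response was taken for the 2487 region probes called in both genotypes at any LPS time. The changes share untreated channels, so the classes are a description. A rise largest at 4 h was the most frequent course, with 968 probes (38.9%), followed by a fall largest at 4 h with 587 (23.6%), a fall at 24 h with 474 (19.1%) and a rise at 24 h with 358 (14.4%). Responses largest at 1 h were rare, 58 rises (2.33%) and 42 falls (1.69%). Among the 16307 other gene probes the order of the leading classes was turned, with 33.9% falling and 27.1% rising most at 4 h.

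Of 18 named long non-coding RNA genes listed for comparison, 12 had probes tested. Of these, 1 rose and 0 fell at 1 h in both genotypes, 4 rose and 3 fell in WT cells at 4 h, and 3 rose and 2 fell in the RNA labelled KO. Over all gene probes, as above, 7.08% and 6.02% were called at 1 h and 30.4% and 31.3% at 4 h in WT and KO cells. The one that rose at 1 h was Mir17hg, the host transcript of a microRNA cluster, and its log2 changes at 4 h were 2.67 in WT and 2.68 in KO cells. Mirt2 was called lower at 4 h in WT cells, where neither array was above background, and rose by 2.50 at 24 h. In KO cells it was also called lower at 4 h with neither array above background (limma adjusted p = 0.0153), and its log2 rise at 24 h was 1.88. The log2 KO/WT of Mirt2 at 24 h was -0.06 and -1.09 on the 2 arrays. Over the 12 genes the median change in WT cells at 4 h was 0.20. These genes were named after their values were seen.

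Few region probes passed the test between KO and WT cells at any single time. The log2 KO/WT ratio of each array was fitted with limma, 16148 region probes were tested, and p-values were adjusted over all 55541 gene probes tested. No region probe was called in untreated cells, where 0.0072% of all gene probes were, or at 4 h (0.009%) or 24 h (0.018%), and 1 was called at 1 h (0.0018%). At an unadjusted p under 0.05, 452, 363, 417 and 275 region probes passed at 0, 1, 4 and 24 h. These were 2.8%, 2.25%, 2.58% and 1.7% of the region probes, against 5.27%, 4.91%, 4.17% and 3.2% of all gene probes. The methods' t-test called 0 region probes at each time after Benjamini-Hochberg adjustment. With the replicate block, 75 were called untreated (7 higher, 68 lower in KO, against 0.988% of all gene probes), 27 at 1 h (2 higher, 25 lower, 0.54%), 13 at 4 h (4 higher, 9 lower, 0.535%) and 16 at 24 h (10 higher, 6 lower, 0.538%). The ratios of the 2 replicates, across region probes, had correlations of -0.04, -0.05, -0.18 and -0.15 at the 4 times. Of the 2740 region probes well above background in all 16 channels, 2734 had a value on every array. Over these the correlations were 0.096, 0.066, -0.19 and -0.19, so the sign at 0 and 1 h depended on which probes entered. These correlations run across probes, which are not independent replicates, and the replicates of a time hold opposite dye orientations.

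For the mean over the 4 times, 13 region probes were called, 0.0805% against 0.463% of all gene probes, and all 13 were lower in KO cells. Over all gene probes 105 were higher (0.189%) and 152 lower (0.274%). With the block 210 region probes were called (74 higher, 136 lower), against 5.01% of all gene probes, the 13 among them. The fit takes the 8 arrays as independent, although KO/WT deviations of same-numbered arrays correlated between times. The SE and p-value of a mean thus do not carry in full the spread between the replicates, and the block takes that spread out of the error. The 13 came from 8 stranded regions, had means from -0.68 to -0.29, and 8 of them were below 0 on all 8 arrays. None of the region probes was called with the software's processed signals, and each of the 13 kept its sign but lost its call in 1 to 11 of the 13 alternatives: A_30_P01020538 in 1, A_30_P01028215 in 8, A_30_P01021970 in 10 and A_30_P01024579 in 11.

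The largest mean was in chrX:120819096-120820227, strand R. The log2 KO/WT ratios of its probe A_30_P01020538, replicates 1 and 2 in turn, were -0.92 and -0.63 untreated, -1.11 and -0.70 at 1 h, -0.52 and -0.68 at 4 h, then -0.38 and -0.53 at 24 h. All 8 lay below 0. The mean was -0.68 ± 0.06 (limma adjusted p = 0.0056, and 6.2e-05 with the block). Its level also fell with LPS in WT cells, from 10.42 and 9.96 untreated to 7.99 and 8.05 at 24 h, a change of -2.17 ± 0.16 (limma adjusted p = 1.57e-07). The other 2 probes of the region were above background in 0 and 2 channels.

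A pair of nearby regions on chromosome 19 also held probes that were lower in KO cells. In chr19:5801802-5802597, strand R, A_30_P01028215 had ratios of -1.30 and -0.78 untreated, -0.76 and -0.53 at 1 h, -0.88 and -0.26 at 4 h, then -0.48 and -0.04 at 24 h. A_30_P01021970 had -1.35 and -0.74, -0.67 and -0.58, -0.98 and -0.16, and -0.51 and -0.05. In both probes replicate 1 lay below replicate 2 at every time, and the ratios were closest to 0 in replicate 2 at 24 h. The means were -0.63 ± 0.09 (adjusted p = 0.028) and -0.63 ± 0.10 (adjusted p = 0.041), and the third probe of the region, A_30_P01031754, had -0.61 ± 0.12 and missed the threshold (adjusted p = 0.067). The region's mean log2 intensities ran from 14.97 to 16.63. In chr19:5834117-5835940, strand R, A_30_P01025818 had ratios of -1.17 and -0.69, -0.87 and -0.49, -0.14 and -0.41, and -0.21 and 0.11 at 0, 1, 4 and 24 h, with a mean of -0.48 ± 0.07 (adjusted p = 0.036). The other 2 probes there had means of -0.52 and -0.49 (adjusted p = 0.078 and 0.076).

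The only probe called at a single time lay in chr16:93121505-93142255, strand R, a region of 5 probes that all rose after 1 h of LPS in both genotypes. Probe A_30_P01028492 had WT levels of 7.77 and 7.66 untreated, 10.04 and 10.27 at 1 h, 8.38 and 8.07 at 4 h, then 8.38 and 8.52 at 24 h. The KO levels were 7.57 and 7.43, 9.003 and 9.20, 8.28 and 8.06, and 8.28 and 8.28. The genotypes overlapped at 4 h and not at the other times, and lay farthest apart at 1 h. Its log2 KO/WT at 1 h was -1.03 and -1.07, with a fitted value of -1.05 ± 0.09 (adjusted p = 0.039, and 0.0011 with the block), and all 5 probes had 1 h ratios from -1.13 to -0.74 on both arrays. That 1 h call was lost in 11 of the 13 alternatives run, in which the ratio lay between -1.23 and -1.01. Among these 11 was the fit without replicate 1 at 1 h, which called other region probes at 1 h but not this one. There the lone array left at 1 h was assumed to vary like the other times. For the mean over the times, 4 of the 5 probes were called. A_30_P01028492 had ratios of -0.20 and -0.23 untreated, -0.10 and -0.01 at 4 h and -0.10 and -0.24 at 24 h, with a mean of -0.37 ± 0.04 (adjusted p = 0.018). A_30_P01026806 had -0.40 and -0.31, -0.90 and -1.13, -0.24 and -0.35, and -0.01 and -0.31 at the 4 times, with a mean of -0.46 ± 0.05 (adjusted p = 0.017). The ratios of both were below 0 on all 8 arrays and farthest from 0 at 1 h. A_30_P01024414 had a mean of -0.42 (adjusted p = 0.026) and A_30_P01032845 of -0.35 (adjusted p = 0.038), while A_30_P01023142 missed the threshold with -0.30 (adjusted p = 0.071).

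The region's 1 h response to LPS ran from 1.81 to 2.62 in WT cells and from 1.11 to 1.96 in KO cells over its 5 probes. The difference in response, from -0.84 to -0.56, did not pass the test in any of the 5, with or without the block.

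The other called probes had smaller means. In chr9:65368908-65377592, strand R, A_30_P01020239 had -0.30 (adjusted p = 0.036), with ratios from -0.48 to -0.09, and A_30_P01024579 had -0.32 (adjusted p = 0.044), with ratios from -0.43 to -0.17. Both were below 0 on all 8 arrays. In chr10:39666719-39679959, strand R, the region that fell at 1 and 4 h and rose at 24 h, A_30_P01022813 had -0.37 (adjusted p = 0.040), and its ratios ran from -0.79 at 1 h to 0.20 at 4 h. A_30_P01026036 in chr17:15226181-15250333, strand F, had -0.39 (adjusted p = 0.041), and A_30_P01026724 in chr12:115365529-115379374, strand R, had -0.29 (adjusted p = 0.049) and was above background in 10 of 16 channels. The count of 13 depended on single arrays: 1 was called without untreated replicate 1, without replicate 2 at 4 h or without replicate 2 at 24 h, 2 without replicate 2 at 1 h or replicate 1 at 4 h, 6 without replicate 1 at 1 h, 7 without untreated replicate 2 and 11 without replicate 1 at 24 h.

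No region probe differed between the genotypes in its LPS response by limma, 0 at 1, 4 and 24 h, as for all gene probes (0%), while 233, 322 and 350 region probes passed an unadjusted p under 0.05, which is 1.44%, 1.99% and 2.17% against 1.44%, 2.75% and 3.16% of all gene probes. With the replicate block 0, 1 and 14 were called, against 0%, 0.036% and 0.189% of all gene probes. Of the 14 at 24 h, 13 had a more positive or less negative change in KO cells, and examples were picked after their values were seen. A_30_P01029853 in chr6:31078802-31079644, strand R, had ratios of -0.84 and -0.88 untreated and 0.74 and 0.01 at 24 h, and changed by -2.81 in WT and -1.58 in KO cells. The difference was 1.24 ± 0.24 (adjusted p = 0.543, and 0.00775 with the block). A_30_P01020902 in chr10:93774693-93893616, strand F, had responses of -0.72 in WT and 0.44 in KO cells, and A_30_P01023171 in the overlapping chr10:93819821-93976621, strand F, had -1.02 and 0.09. The 1 probe with a more negative change was A_30_P01021222 in chr17:8718223-8949898, strand F, with -1.09 in WT and -2.27 in KO cells, a difference of -1.17 ± 0.18 (adjusted p = 0.351, and 0.0118 with the block).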

How the data were processed

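RNA of 16 samples was hybridised in pairs to 8 Agilent 2-colour arrays, and the authors scanned them with Feature Extraction 10.7.3. The deposited scanner files give intensities on a linear scale, and the deposited value table holds log2 ratios, used as an alternative (correlation across probes with the ratios computed here 0.989 to 0.996). The authors' methods name limma, loess and quantile normalization, a filter on average log2 expression of 6 and a 2-sample t-test.

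Here median intensities were background-corrected in limma 3.58.1 (R 4.3.3; normexp, offset 50), loess-normalized within arrays and quantile-normalized between arrays. Control spots had weight 0, flagged gene spots were set to missing and spots of a probe were averaged, and a probe entered the tests where its log2 intensity averaged 6 or more. KO/WT was fitted on array ratios with 1 coefficient per time. LPS responses were fitted on separate channels, taking 0.113 as the correlation within spots (from 5000 probes, statmod 1.5.0). The p-values were adjusted by Benjamini-Hochberg over all gene probes tested, at a threshold of 0.05. The fits were tested on simulated data that held no replicate or dye effect shared between times, so they were not tested under such an effect. Precision is limited by the 2 arrays per time, and p-values measure the spread between them.

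The region probes and lists were chosen with earlier results of these data known. For each LPS time, probes were named if called in both genotypes in one direction, with all 4 replicate-wise differences of that sign and all 4 channels of the brighter condition above background: up to 5 that rose and 5 that fell by the smaller of the changes in the genotypes, 1 per stranded region. For KO/WT, called probes of one sign on their arrays were named by size, and the rest of the 13 and of the block-only calls after their values were seen. Replicate numbers were taken to pair the samples, since log2 KO/WT deviations of same-numbered arrays correlated at 0.444 to 0.642 between times (0.300 to 0.372 over region probes), and deviations of their mean intensities at 0.104 to 0.216. Same-numbered arrays also share the dye orientation, so the part of the dyes in the first of these cannot be told apart. Times are those of the titles; the growth protocol in the labels mentions 4 h for all cells. The genome build of the names, mm9, is that of the file headers.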

Additional observations from a re-analysis of the deposited data

How the results depend on the processing

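The 60 LPS results of named region probes kept their direction in the 13 alternatives run (12 for the results of A_30_P01021165), and 1 lost its call, as given above. The 13 KO/WT means kept their sign and missed the threshold in 1 to 11 alternatives. By the software's test for positive and significant signal, the median share of region probes detected per channel was 51.4%, and by stranded regions with at least 1 probe well above background it was 49.95%. The replicate block gave KO/WT counts of 75, 27, 13 and 16 at 0, 1, 4 and 24 h and 210 for the mean, 551 for the KO response at 1 h, and 1 and 14 for the differences in response at 4 and 24 h. It moved no other count by over 1.5 times. The 1 call of KO/WT at 1 h became 0 with the software's processed signals, Aquantile scaling, the filter at 7, the brightest probe per region, the authors' value table and the methods' t-test. At 24 h Aquantile scaling and the authors' table gave 1 instead of 0. The mean gave 0 with processed signals and 4 with the brightest probe. Taking the brightest probe per region, which leaves fewer probes by construction, gave 222, 1109 and 927 LPS calls in WT and 158, 1174 and 833 in KO cells at 1, 4 and 24 h. The filter at 7 gave 1603 in WT and 1651 in KO cells at 4 h.

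Leaving out a single array leaves 1 array at that time, which the fit assumes to vary like the other times. It gave 0 to 0 KO/WT calls untreated, 0 to 5 at 1 h, 0 to 0 at 4 h, 0 to 0 at 24 h and 1 to 11 for the mean. The LPS calls ranged from 360 to 562, 1849 to 2307 and 1444 to 1967 in WT, and from 231 to 363, 1908 to 2415 and 1257 to 1755 in KO cells. The lowest KO counts at 1 h were 231 without untreated replicate 1 and 232 without 1 h replicate 2. Differences in response gave 0 to 3, 0 to 0 and 0 to 0. No scaling turned a direction. Most region probes lie near background, where a change is measured less well or only as a bound, and the counts of calls include such probes.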
